A study of Caenorhabditis elegans with 4 samples.

Results

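The sygl-1 and lst-1 regions are the places on chromosome I where LAG-1 chromatin immunoprecipitation gave the peaks that carry the names of these genes, 2 of 1776 merged regions in all. They are known Notch targets and were chosen by their fold over input, which put them among the leading regions. Fold, pileup, summit position and width all come from the same peak calls as that choice, so they are described here and carry no test. The study measured LAG-1 binding by ChIP-seq in Caenorhabditis elegans of the Bristol strain, synchronised by bleaching and collected as L4 larvae, the last larval stage. There are 3 LAG-1 ChIP replicates, stated to be biologically independent, and 1 sample of input DNA of the same strain and stage. No mutant or treated animals form a group. The labels name germline as the cell type, but the lysates were made from animals, so binding in germ cells cannot be told apart from binding in other tissues, and a peak list holds no markers by which the cell type could be checked. In the headers of the peak lists the ChIP libraries bear a tag name and not that of LAG-1, so the target is known from the labels alone.

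LAG-1 is the CSL protein of the worm, the partner on DNA through which the Notch signal reaches its genes. The somatic distal tip cell presents the ligand LAG-2 to the germ cells next to it. The receptor GLP-1 is then cut, and its intracellular part joins LAG-1 and the coactivator SEL-8 at target genes. In the germline stem cell pool sygl-1 and lst-1 are the known key targets. Either one is enough to keep stem cells, which are lost when both are removed, and their proteins work with the FBF proteins, RNA-binding proteins of the PUF family that repress differentiation messages. In vulval precursor cells lst-1 was also described as a target of LIN-12, the other worm Notch receptor.

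The sygl-1 region ran from 12483144 to 12484314 on chromosome I of the ce10 build, and the lst-1 region ran from 10587863 to 10588876. Both were present in all 3 peak lists, as were 319 of the 1776 merged regions (18.0%). At 50% reciprocal overlap between every pair of lists both were still matched, while 6.19% of the merged regions were. Presence in the lists follows from the same peak calls that chose the regions, so nothing is read from these shares. The gene names were taken as given. The gene annotation used here is of another build, WBcel235, and served only for names and gene order. In that order sygl-1 (gene ID 173116) lies between clec-12 and pars-2, and lst-1 (gene ID 172948) lies between hsp-12.1 and set-18, counting protein-coding genes. The distance from a LAG-1 summit to either gene, and whether a summit falls in a promoter, an exon or an intron, was not measured.

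The libraries differed in depth and in the length to which tags were extended. After removal of repeated tags, replicates 1, 2 and 3 kept 784774, 509715 and 1305672 tags, and MACS, the peak caller, extended them to 77, 125 and 55 bp. The input kept 15313802 tags and was sampled down to the size of each ChIP library. Peaks numbered 1221, 1148 and 799. Pileup is how many extended tags overlap at the summit, and the deposited fold is the authors' ratio of the ChIP pileup to the local input background. Pileup was not scaled between libraries.

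LAG-1 was strongly enriched at the sygl-1 region in every replicate. Replicates 1, 2 and 3 gave folds over input of 50.3, 56.2 and 26.7, which average 44.4 ± 15.6 (SD, n = 3). Replicates 1 and 2 lay close together and replicate 3 stood below them, with the highest fold 2.11 times the lowest. Among all peaks, the median fold was 4.70, 4.71 and 4.50 in the same lists, so the region stood 10.7, 12 and 5.93 times as high as the median peak. It ranked 1, 2 and 3 by fold and first by pileup in each list. The pileup at its summit was 146, 224 and 105 tags. The −log10 q-value that the authors' caller gave was 207, 321 and 115, against list medians of 4.52, 4.82 and 5.99.

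LAG-1 was also enriched at the lst-1 region in every replicate, at a lower fold that varied less between replicates. Relative to its mean the pileup did not vary less, at 127.7 ± 53.7 tags against 158.3 ± 60.5 at sygl-1 (SD, n = 3 each). These tag counts were not scaled between libraries, whose extension lengths differ. As a percentage of the limit on pileup described below, the values were 74.6 ± 2.96 at lst-1 and 93.3 ± 3.21 at sygl-1 (SD, n = 3 each). Replicates 1, 2 and 3 gave folds of 27.7, 31.5 and 21.5, which average 26.9 ± 5.05 (SD, n = 3). The highest fold was 1.47 times the lowest. The region stood 5.90, 6.69 and 4.78 times as high as the median fold of its lists. It ranked 5, 11 and 5 by fold, 5, 4 and 14 by pileup, and 4 by q-value in each list. The pileup was 110, 188 and 85 tags, and the −log10 q-value was 123, 215 and 85.3.

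**Figure D1:**
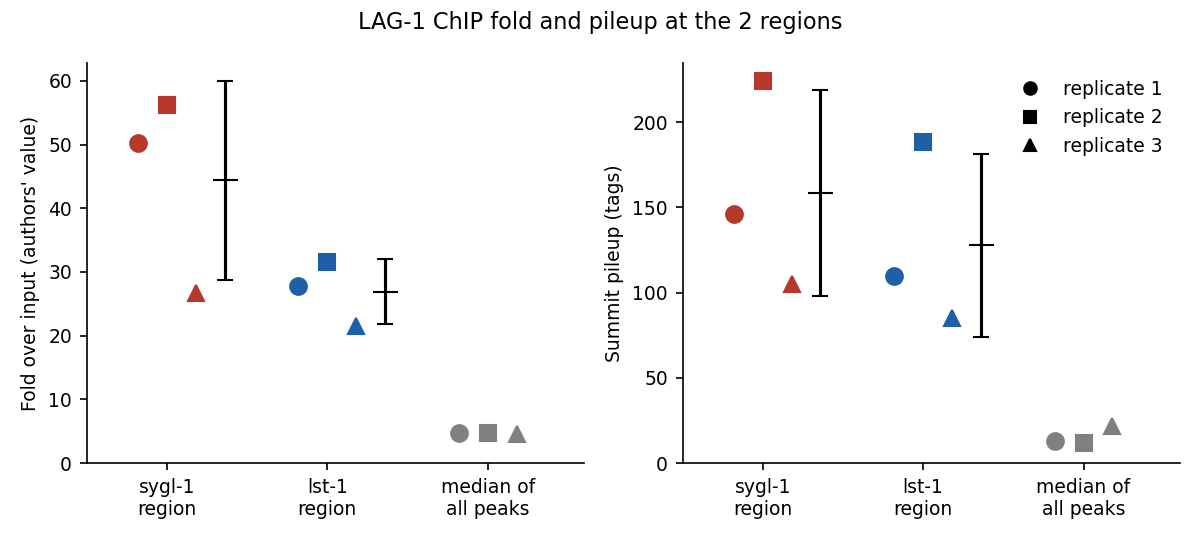
Fold over input (left) and summit pileup in tags (right) at the sygl-1 region, the lst-1 region and for the median of all peaks, with 1 marker per replicate; bars are mean ± SD over 3 replicates. All 3 values of each region lie above the median of the list, and replicate 3 is the lowest at both regions.

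Both regions had the same order of replicates, highest in replicate 2 and lowest in replicate 3, in fold and in pileup. The same order of fold was seen in 81 of the 319 shared regions (25.4%). The extension length has the same order as the pileup, at 125, 77 and 55 bp in replicates 2, 1 and 3, and its part in the result was not tested. It sets a limit on pileup, described below, of 110 tags in replicate 3, less than the 146 tags at sygl-1 in replicate 1. In replicate 1 the limit was 154 tags, less than the replicate 2 pileups of 224 at sygl-1 and 188 at lst-1. The shared order of pileup is therefore not read as a likeness of the 2 regions. The range of log2 fold over replicates was 1.07 at sygl-1 and 0.55 at lst-1, against a median of 0.64 over the shared regions. A wider range than at sygl-1 was seen in 18.8% of shared regions, and a wider range than at lst-1 in 60.5%.

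The sygl-1 fold was above the lst-1 fold in 3 of 3 replicates, by 1.81, 1.79 and 1.24 times. On the log2 scale the difference, sygl-1 minus lst-1, was 0.86, 0.84 and 0.31, a mean of 0.67 ± 0.31 (SD, n = 3). The folds of the 2 regions overlap between replicates, since sygl-1 in replicate 3 (26.7) was below lst-1 in replicates 1 and 2 (27.7 and 31.5). Within each library sygl-1 was the higher. The difference can be split exactly into a term from the ChIP pileup and a term from the input background. The pileup term was 0.41, 0.25 and 0.30, so sygl-1 had 1.33, 1.19 and 1.24 times the tags of lst-1. The background term was 0.45, 0.58 and 0.01, and it varied far more between lists than the pileup term did. In replicates 1 and 2 more than 50% of the difference in fold thus came from a lower input background at sygl-1, and in replicate 3 nearly all of it came from the pileup. All 3 lists used the same input sample, so the background terms are not independent replicates. The SD of the difference therefore covers no replicate of the input.

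**Figure D2:**
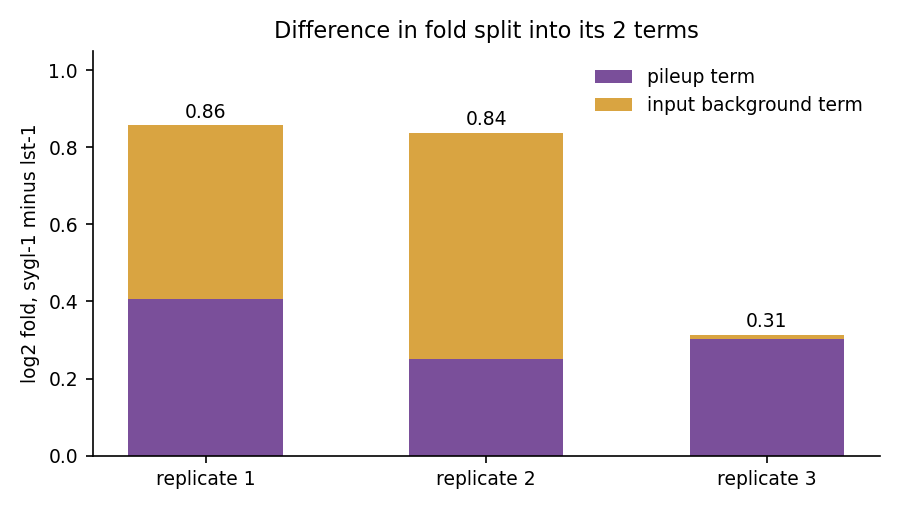
Difference in log2 fold, sygl-1 minus lst-1, in each replicate, as stacked bars of the pileup term and the input background term, with the total above each bar. The pileup terms lie between 0.25 and 0.41, while the background terms run between 0.01 and 0.58.

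Few input tags stand behind these backgrounds. The local background was 1.93, 3.0 and 2.97 tags at the sygl-1 summit and 3.0, 5.0 and 3.0 tags at the lst-1 summit. These are 2.87, 4.24 and 3.72 times the genome-wide level at sygl-1 and 4.47, 7.06 and 3.76 times at lst-1. They were not unusual for LAG-1 summits, whose medians in the 3 lists were 5.96, 4.24 and 8.0 times that level. MACS takes the highest of several windows. At lst-1 in replicates 1 and 3 the value equals 3 input tags stacked at the summit, with an exact 95% Poisson interval of 0.619 to 8.77 tags. Over that interval alone the fold at lst-1 would run between 11.4 and 68.6 in replicate 1 and between 8.80 and 53.1 in replicate 3. At sygl-1 the value matches 25 input tags within 1 kb in replicate 1 and 54 in replicate 3, which would give narrower limits of 38.3 to 65.5 and 21.7 to 32.8. Only a stack and a count within 1 kb were checked, so a wider window could give the same value. In replicate 2 a stack at the summit and a count within 1 kb give the same background at each region, so the window could not be told. The intervals cover counting error of the input only and take no account of the other windows. The lower limit of 0.619 tags at lst-1 also lies below the genome-wide level, which was 0.671 tags in replicate 1 and 0.798 in replicate 3. In both replicates the fold limits of the 2 regions overlap, and no test of their difference is drawn from this.

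The pileup was also limited from above. Since each position of a strand counts once, the most that can stack up is 2 times the extension length, or 154, 250 and 110 tags in replicates 1, 2 and 3. The sygl-1 summit stood at 94.8%, 89.6% and 95.5% of that limit, and the lst-1 summit at 71.4%, 75.2% and 77.3%. How far the limit shortened the distance between the regions was not tested.

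**Figure D3:**
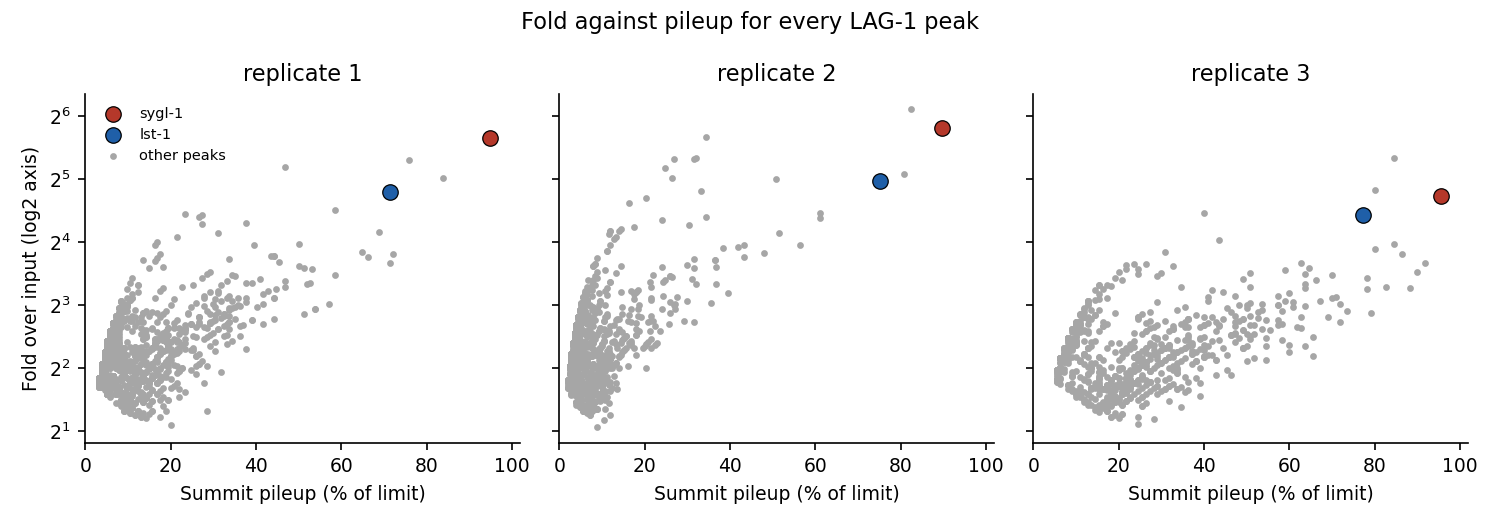
Fold over input (log2 axis) against summit pileup as a percentage of the limit set by 1 tag per position and strand, for every peak of replicates 1, 2 and 3, with sygl-1 in red, lst-1 in blue and other peaks in grey. The sygl-1 peak lies farthest right in each panel, between 89.6% and 95.5% of the limit.

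The position of the leading summit differed by a few bp between replicates. At sygl-1 this summit, the one of highest fold, lay at 12483808, 12483808 and 12483811, a spread of 3 bp. At lst-1 it lay at 10588350, 10588352 and 10588354, a spread of 4 bp. The median spread over the 319 shared regions was 134 bp, and 16 of them (5.02%) had a spread of at most 10 bp. A spread of at most 3 bp was found at 1 shared region, sygl-1 itself, and a spread of at most 4 bp at 4. How other high regions compared depended on how they were picked. The 20 leading regions by fold, sygl-1 and lst-1 included, had a median spread of 48.5 bp, and 4 of them were at or below 10 bp. By pileup, another 11 shared regions had, in every list, at least 50% of the pileup of the lst-1 region, and their median spread was 405 bp, with a range of 5 to 3188 bp and 1 of them at or below 10 bp. Of these 11, 6 had 1 interval in each list, as sygl-1 and lst-1 did, and so did 180 of the 319 shared regions. Where a list held several intervals in a region, that of highest fold was used, so the spread can run between different peaks. The 50% limit left out the region on IV from 13549344 to 13549590, with pileups of 90, 79 and 93 tags and a spread of 4 bp, on its replicate 2 value alone. On that value alone it also left out regions on I from 3171576 to 3172097 and on II from 5144923 to 5145180. Their pileups were 68, 65 and 76 tags on I and 72, 57 and 52 tags on II, each with a spread of 5 bp. The 11 were also wider, with a median merged width of 2594 bp, and had a higher input background, with medians of 7.45, 8.48 and 8.0 times the genome-wide level. The part of width and background in the difference was not tested.

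**Figure D4:**
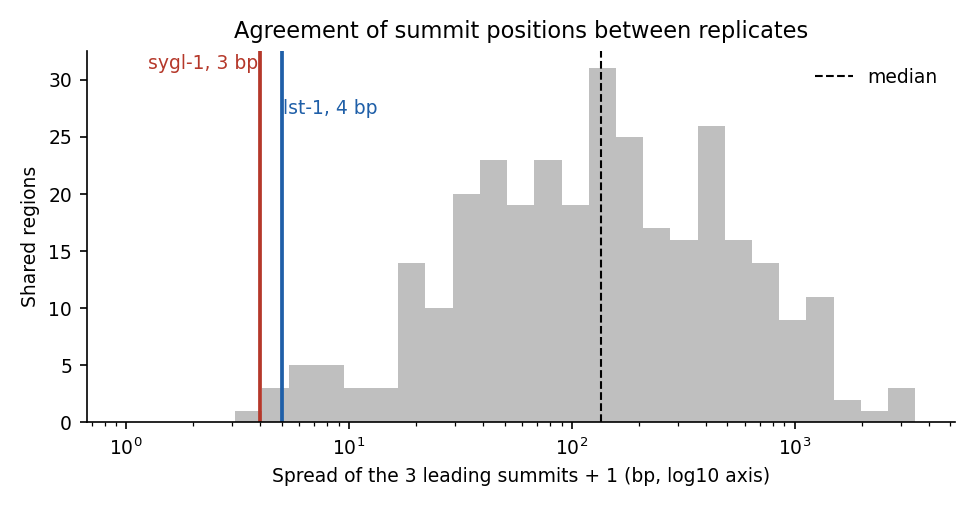
Histogram of the spread of the 3 leading summits over the 319 shared regions, in bp plus 1 on a log10 axis, with the sygl-1 and lst-1 regions marked in red and blue and the median as a dashed line. Both regions lie in the lower tail, at 3 and 4 bp, against a median of 134 bp. In regions of several intervals the leading summits can belong to different peaks.

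Each region was 1 unbroken interval in each list, as 56.4% of the shared regions were. The sygl-1 peak was 1162, 1171 and 832 bp wide, a mean of 1055 ± 193 bp, and the lst-1 peak was 986, 1014 and 742 bp wide, a mean of 914 ± 150 bp (SD, n = 3 each). Replicates 1 and 2 gave nearly the same interval, with reciprocal overlaps of 99.2% at sygl-1 and 97.2% at lst-1, and replicate 3 gave a shorter one inside it. The stretch covered in all 3 lists was 832 bp at sygl-1 and 742 bp at lst-1, which is the replicate 3 peak in each case. The sygl-1 peak was wider than the lst-1 peak by 176, 157 and 90 bp in replicates 1, 2 and 3. Both were wide against all LAG-1 peaks of a list, whose median widths were 132, 194 and 122 bp. Still, by the width of the merged region, 60 shared regions were wider than sygl-1 (1171 bp) and 71 wider than lst-1 (1014 bp). A merged region can join several peaks of a list, which the sygl-1 and lst-1 regions do not. Against peaks with at least 50% of its pileup, sygl-1 was 1.08, 0.62 and 2.17 times the median width in replicates 1, 2 and 3. It ranked 10 of 21, 6 of 10 and 18 of 87. By the same rule lst-1 was 1.48, 0.87 and 2.12 times the median, ranking 23 of 53, 10 of 15 and 33 of 141. In replicate 2 both were thus narrower than the median of these peaks.

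The leading summit lay near the middle of each peak. At sygl-1 it was 77.5, 79 and 14.5 bp right of the centre, toward higher positions on the chromosome. At lst-1 it was 9.5, 17.5 and 9.5 bp left of the centre. As a share of width the offset was 6.67%, 6.75% and 1.74% at sygl-1 and 0.963%, 1.73% and 1.28% at lst-1, against a median of 15.3% over the peaks of shared regions. The peaks thus reached 658, 664 and 430 bp to the left of the sygl-1 summit and 503, 506 and 401 bp to its right. At lst-1 they reached 483, 489 and 361 bp to the left and 502, 524 and 380 bp to the right.

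Weaker summits accompanied the leading ones, and most lay on the lower-coordinate side. The sygl-1 region held 5 summits over the 3 lists and the lst-1 region held 8, and 6 of the 7 that were not leading lay to the left of the leading summit. At sygl-1 replicate 1 had a second summit 305 bp to the left with a fold of 17.4, and replicate 3 had one 161 bp to the left with a fold of 9.33. Replicate 2 had none. These 2 positions lay 147 bp apart, so they did not coincide. At lst-1 replicates 1 and 2 had a summit 302 and 266 bp to the left, with folds of 12.5 and 12, and these lay 38 bp apart. Replicate 3 had its second summit 93 bp to the left, with a fold of 14.2 and 65.9% of the leading pileup. The remaining summits of lst-1 were low, with folds of 6.21 at 444 bp to the left in replicate 1 and 4.73 at 449 bp to the right in replicate 2.

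**Figure D5:**
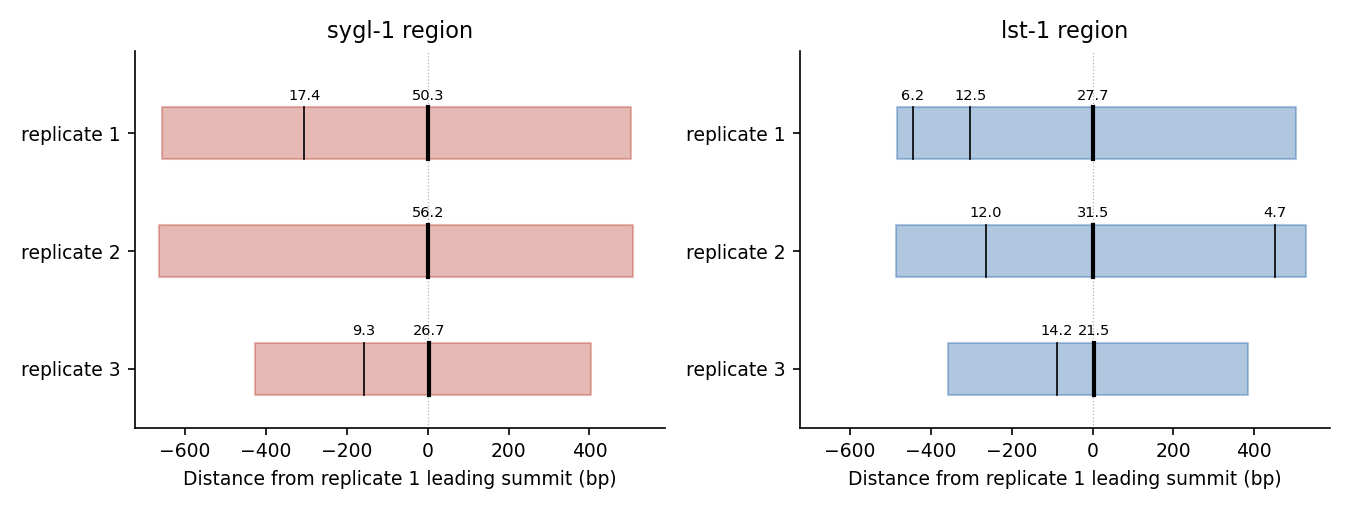
Peak intervals of the sygl-1 region (left) and the lst-1 region (right) in replicates 1, 2 and 3, drawn by distance in bp from the leading summit of replicate 1; thick lines are leading summits, thin lines are other summits, and numbers are folds over input. The leading summits line up within 4 bp, while the positions of the others differ between replicates.

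Little else was called nearby. Within 10 kb of the sygl-1 region there was 1 other peak, in replicate 2, from 12481761 to 12481886. It lay 1.26 kb to the left, with a pileup of 8 tags and a fold of 3.79, rank 896 of 1148, and neither of the other lists had a peak there. Within 10 kb of the lst-1 region no list had another peak, as was so for 27.3% of the shared regions. The median over shared regions was 8 such peaks summed over the lists, and 68.0% had more than sygl-1. The nearest region shared by all 3 lists was 506 kb to the left and 789 kb to the right of sygl-1, and 125 kb to the left and 357 kb to the right of lst-1.

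Regions elsewhere came close to these in fold over the 3 lists. By distance between the 3 log2 folds, the shared regions most like sygl-1 lay on IV from 6096542 to 6100794 (folds 32.5, 69.0 and 28.3), on V from 11769875 to 11770872 (39.3, 33.8 and 40.5) and on III from 9793379 to 9794166 (36.5, 32.0 and 16.3). Those most like lst-1 were the same region on III, one on III from 3630270 to 3630840 (19.7, 50.9 and 22.0) and one on X from 14790280 to 14790891 (21.9, 40.0 and 12.5). Neither gene's region was among the 3 most like the other. The distance to the first neighbour was 0.70 for sygl-1 and 0.56 for lst-1 on the log2 scale, against medians of 5.12 and 3.92 over all shared regions. The summits of these regions spread over 5 bp on V, 23 and 25 bp in the regions starting at 9793379 and 3630270 on III, 32 bp on X and 496 bp on IV, where the region was 4253 bp wide. A fold of at least 20 in every list was reached by 4 shared regions, which were sygl-1, lst-1 and the named regions on IV and V.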

How the data were processed

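The authors called 1 peak list per LAG-1 ChIP replicate against the same input with MACS 2.1.1.20160309, from single-end 50 bp tags with repeats at a position removed and the bigger library sampled down, per the file headers. The build is ce10, per the submitters' processing notes, and for the aligner the sources used here give no name. The deposited pileup is a signal in tags, the deposited fold is a ratio to local input background, and the deposited significance is a −log10 p-value and a −log10 q-value. All summits met the stated thresholds, fold above 2.0 and false discovery rate below 0.05.

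Peaks overlapping by 1 bp or more were merged (Python 3.11.15, pandas 2.3.3), and the summit of highest fold stood for a peak. Background was recovered from fold and pileup with the MACS pseudocount of 1. Poisson p-values rebuilt from it lay within 0.05 on the −log10 scale for 100%, 99.89% and 100% of summits in replicates 1, 2 and 3. The Poisson tail was taken with or without the observed count, whichever matched better in that replicate. The background was read as input tags where it matched a whole number within 0.001. The genome-wide level is kept tags times extension length over 90000000 bp. Merging, summit spread and the recovery of background were tested on simulated lists. Each simulated peak had 1 summit and each shared place 1 peak per list, so regions of several peaks or summits were not covered. The simulated background was recovered with the same formula that made the fold. The exact sign-flip test planned for the difference between the regions cannot go below p = 0.25 with 3 replicates and was not used, since fold chose the regions. Named were the 2 members, the 3 shared regions nearest to each in log2 fold, and peaks within 10 kb. Further regions whose summits lay within 10 bp were named after their values were seen. Members and lists were chosen with earlier results of these data known. CSL motifs and the pathway gene list were not analysed here.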

Additional observations from a re-analysis of the deposited data

How the results depend on the processing

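With 1 replicate left out, mean fold lay between 38.5 and 53.3 at sygl-1 and between 24.6 and 29.6 at lst-1, the log2 difference between 0.57 and 0.85, mean width between 997 and 1166.5 bp at sygl-1 and between 864 and 1000 bp at lst-1, and the summit spread between 0 and 3 bp and between 2 and 4 bp. The summit of highest pileup or q-value was the same as that of highest fold. With the genome-wide background, chosen after the data were seen, mean fold was 92.9 at sygl-1 and 75.0 at lst-1, and the log2 difference was 0.32. With pileup, or pileup as a share of its limit, that difference was also 0.32, and without the pseudocount it was 0.79. By pileup sygl-1 ranked 1 in replicates 2 and 3, and lst-1 ranked 4 in replicate 2 (4 by q-value too) and 14 in replicate 3. By width the ranks in replicates 1, 2 and 3 were 29, 54 and 34 for sygl-1 and 38, 68 and 44 for lst-1. Within 50 and 100 kb there were 2 and 8 other peaks around sygl-1 and 1 and 3 around lst-1. Both regions remained in all 3 lists at 50% reciprocal overlap, at a fold of at least 5 and at a −log10 q of at least 10. A rank among peaks below 2 times the genome-wide background could not be given, since neither region lies below it. ChIP and input could not be paired by replicate because the input has 1 sample and no replicate numbers shared with the ChIP. Sampled down to the size of each ChIP library, the input left few tags for the background, which rests on 3 stacked tags at lst-1 in replicates 1 and 3.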

Other observations

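Of the 16 shared regions whose 3 summits lay within 10 bp, 4 had a fold of at least 10 in every list and 12 did not. The 4 were sygl-1, lst-1, the region on V from 11769875 to 11770872 and the region on IV from 13549344 to 13549590, where the folds were 22.7, 13.3 and 15.7 and the spread was 4 bp. The 14 regions other than sygl-1 and lst-1 had a median merged width of 260 bp, and all were narrower than both by that measure, the widest at 998 bp. Close agreement of the summit was therefore also seen at low and narrow regions, such as the one on II from 3994609 to 3994870, with a spread of 4 bp and folds of 6.37, 5.10 and 8.0. Which genes these regions lie at was not analysed here.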
